A study of Mus musculus with 4 samples.

Results

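Gene deserts are long stretches of the genome without protein-coding genes, and the accessible chromatin inside them was examined here in mouse osteoblasts with and without the TET enzymes. A region of the ATAC-seq count table was taken as a desert region when it lay on an autosome, its midpoint was outside every protein-coding gene, and its midpoint was more than 200 kb from every protein-coding transcript start of GENCODE M21. This rule used no count, and it selected 26906 of the 255864 regions, or 10.5%. The median desert region was 359 kb from the nearest start and 216 bp wide, and 1626 of them (6.04%) were more than 1 Mb away, up to 2.7 Mb.

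Primary osteoblasts, the bone-forming cells, came from 3-day-old C57BL/6 mice that were either WT or TCKO. TCKO mice carried floxed *Tet1*, *Tet2* and *Tet3* (Tet1/2/3 fl/fl) and Prx1-Cre, a recombinase expressed in limb-bud and other mesenchyme, so cells outside that lineage were not targeted. The labels listed 2 samples per genotype (4 in all) while a protocol text spoke of 3 repeats. The study's methods give 3 repeats per group for RNA-seq and no number for ATAC-seq. The deposited counts were merged into 1 column per genotype. No test of genotype could therefore be made, no p-value is given, and every difference compares a pair of merged libraries without a replicate check. The intervals around counts, shares and medians cover counting error or the spread over regions of these libraries only. Reads counted over all regions totalled 56898657 in WT and 34608167 in TCKO. TCKO counts were multiplied by 1.64 to reach the WT total before ratios were taken.

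The labelled cell type was checked at promoters, since ATAC-seq reads neither RNA levels nor the deletion of the *Tet* genes. All 10 osteoblast markers had an accessible promoter region, and in WT 4 of them exceeded the median of promoter regions. Sums over the list were 8267 counts per kb in WT and 8087 scaled counts per kb in TCKO. Single members went both ways, with 294 and 122 at *Ibsp*, 735 and 432 at *Postn* and 582 and 985 at *Spp1*. All 4 neuronal markers also had a region, so the presence of a region alone does not tell cell types apart. Markers of other cells that such cultures can hold were also read. Macrophage or osteoclast promoters went from a sum of 1676 in WT to 2563 in TCKO, with *Ptprc* and *Itgam* lacking a region in both, and endothelial promoters from 1664 to 2744. At *Csf1r*, the receptor for a macrophage growth factor, the values were 621 and 1247, and at *Pecam1*, an endothelial adhesion molecule, 613 and 1203. Other members of the same lists differed less or went the other way, with 261 and 250.2 at *Adgre1* (macrophages) and 335 and 263 at *Tek* (endothelium). Muscle and cartilage sums differed less (631 and 601, 1727 and 1578), as did those of neuronal genes (3261 and 3537). Whether a different mix of cells had a part in the ratios of desert regions was not tested.

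Accessible sites far from genes are mostly distal enhancers, which act on promoters across long stretches of DNA through bound transcription factors. Deserts beside developmental regulators such as *Sox9* and *Bmp2* are known for holding enhancers of skeletal development, whereas many others flank genes of neuronal adhesion. TET enzymes oxidise 5-methylcytosine at CpG dinucleotides, the first step of active demethylation, and enhancers are among the sequences on which they act. AP-1, a dimer of FOS and JUN proteins, binds the consensus TGANTCA, which has no CpG of its own, and occupies many distal enhancers.

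The central 200 bp of 6 desert regions are printed here (GRCm38, plus strand, RefSeq). They were picked with their values known, as examples of the sequence features along which the ratios varied. Also far lower in TCKO but not printed were Etnk1-Sox5 (3 CpGs), Ebf1-Clint1 (2) and Wac-Fzd8 (0). Not printed among regions far higher in TCKO were Tox-Car8 and Setbp1-Pard6g (4 CpGs), which lack the AP-1 consensus. In the first set, from regions with many fewer TCKO reads, capitals mark CpG dinucleotides. The Kcnj2-Sox9 sequence lies in the desert upstream of *Sox9*.
Mmadhc-Rnd3 (chr2:50877881-50878080): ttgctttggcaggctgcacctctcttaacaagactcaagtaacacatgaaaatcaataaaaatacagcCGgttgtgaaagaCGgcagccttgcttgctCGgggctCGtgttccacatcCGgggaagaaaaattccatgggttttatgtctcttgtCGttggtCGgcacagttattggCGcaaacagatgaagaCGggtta
Mctp2-Rgma (chr7:73037090-73037289): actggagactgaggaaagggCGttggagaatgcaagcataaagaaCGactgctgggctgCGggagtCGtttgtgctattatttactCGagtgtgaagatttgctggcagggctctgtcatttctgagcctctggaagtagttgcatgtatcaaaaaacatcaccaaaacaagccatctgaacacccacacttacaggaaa
Kcnj2-Sox9 (chr11:112480405-112480604): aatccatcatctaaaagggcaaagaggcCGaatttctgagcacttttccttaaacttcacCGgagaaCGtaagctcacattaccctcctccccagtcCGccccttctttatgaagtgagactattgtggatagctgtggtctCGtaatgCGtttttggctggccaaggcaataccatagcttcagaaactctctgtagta
In the second set, from regions with many more TCKO reads, capitals mark matches to the AP-1 consensus, and none of the 3 sequences holds a CpG.
Lingo2-1700009N14Rik (chr4:38748295-38748494): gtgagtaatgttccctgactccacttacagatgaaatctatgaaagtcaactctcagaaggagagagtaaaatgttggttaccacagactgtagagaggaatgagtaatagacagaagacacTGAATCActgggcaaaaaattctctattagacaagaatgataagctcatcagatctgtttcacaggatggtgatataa
Trim52-Slitrk1 (chr14:108258592-108258791): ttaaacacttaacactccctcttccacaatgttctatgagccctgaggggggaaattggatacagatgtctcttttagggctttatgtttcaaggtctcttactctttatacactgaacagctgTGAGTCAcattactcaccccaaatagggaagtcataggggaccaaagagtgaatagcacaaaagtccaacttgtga
Ankrd7-Kcnd2 (chr6:19364663-19364862): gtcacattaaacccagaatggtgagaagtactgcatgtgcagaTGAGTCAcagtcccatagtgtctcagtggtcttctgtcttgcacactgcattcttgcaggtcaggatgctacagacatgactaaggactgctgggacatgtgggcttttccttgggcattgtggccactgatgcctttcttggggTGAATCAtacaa

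The first comparison asked whether desert regions gained or lost accessibility relative to the rest of the table. They held a median of 56 WT and 45 TCKO counts before scaling, and the median log2 ratio of TCKO to WT was 0.26 (95% interval 0.25 to 0.28 from order statistics). The ratio was above 0 in 17016 desert regions (63.2%), against 54.6% of all regions. The median was 0.08 in 89186 intergenic regions that lay closer to a start (1 to 200 kb), 0.07 in 112296 regions inside protein-coding genes, -0.07 in 22130 promoter regions and 0.06 over all regions. Desert regions therefore stood 0.18 (0.17 to 0.19) above nearer intergenic regions on the log2 scale. The 6302 regions that were inside a gene but also more than 200 kb from any start lay between, with a median of 0.19.

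Among desert regions, 1223 (4.55%, 4.30% to 4.80%) were lower in TCKO by 2-fold or more, and 5691 (21.2%, 20.7% to 21.6%) were higher by as much. Over all regions 4.51% were 2-fold lower and 12.3% 2-fold higher. The lower share of desert regions was thus near that of the table, and the higher share was above it. Most of these regions were weak. The lower ones held a median of 59 WT and 14 TCKO counts and the higher ones 27 WT and 45 TCKO counts, and the interval of the ratio lay wholly past 2-fold for 148 lower and 1937 higher regions. In the 4010 desert regions where the genotype with the larger unscaled count had 200 or more, 203 (5.06%) were lower and 262 (6.53%) higher. Their median ratio was 0.01. This limit was set before scaling, so a rise needed a larger scaled count than a fall to pass, and the closer balance is partly set by it. In the fifth of desert regions with the highest mean scaled count (above 161), the median was 0.14. There 3.12% were lower and 9.55% higher, beside 3.11% and 4.57% of nearer intergenic regions at like counts.

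**Figure D1:**
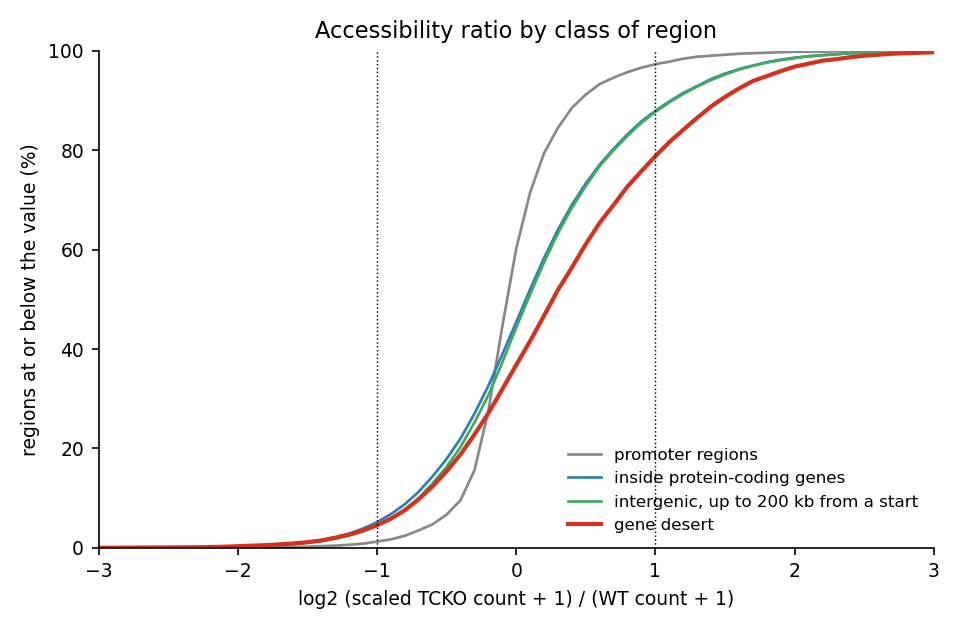
Cumulative share of regions (y axis, %) at or below a given log2 ratio of scaled TCKO to WT counts (x axis) for promoter regions, regions inside protein-coding genes, intergenic regions up to 200 kb from a start and gene-desert regions. The dotted lines mark 2-fold. The desert curve and that of nearer intergenic regions nearly coincide at the 2-fold lower line (4.55% and 4.45%), and the desert curve then runs lower from a ratio of -0.8 to the medians of 0.26 and 0.08.

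Both groups were then compared at like counts. Desert regions held fewer counts than nearer intergenic regions (medians of 56 and 83 in WT), and 5 bins of equal numbers of desert regions by mean count were used. Desert medians exceeded those of nearer intergenic regions in each bin, by 0.14 to 0.20. After the trend of the ratio with count was removed by loess, the desert median was 0.18 and that of nearer intergenic regions 0.01. The desert calls were then 1327 lower (4.93%) and 4722 higher (17.5%), beside 5.41% and 9.72% over all regions.

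The sign of the desert median was set by the scaling, whereas the contrast with nearer regions was not. When the depth was taken from the genome-wide background of the peak caller, which gave a TCKO factor of 1.08, the desert median was -0.33 and that of all regions -0.54. Under this scaling 4991 desert regions (18.5%) were 2-fold lower and 2073 (7.70%) were 2-fold higher, beside 19.9% and 3.91% of all regions. The lower calls made up 17.7% of those past 2-fold with the total count and 70.7% with the background depth. A single factor shifts all ratios alike, and the difference between desert and nearer intergenic regions was 0.18 with either. All signs and fold calls given from here on are those of the total count unless another scaling is named.

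The peak lists gave a second reading. A peak was called in both genotypes at 13835 desert regions (51.4%, 50.8% to 52.0%), in WT alone at 8734 (32.5%) and in TCKO alone at 4337 (16.1%). In nearer intergenic regions peaks of TCKO alone made up 10.2% and those of WT alone 34.0%. A region was listed if either genotype had a peak there, so single-genotype peaks and extreme ratios are linked by construction. At regions with a peak in WT alone the median counts were 43 in WT and 23 in TCKO, and at those with a peak in TCKO alone they were 21 and 35.

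The fold enrichment at the summit, which the peak caller takes against the local background of the same library, had the opposite sign to the scaled counts. Over desert regions with both peaks the summit fold had a median of 5.71 in WT and 5.14 in TCKO. Its median log2 difference was -0.15 (-0.16 to -0.14), where the scaled counts of the same regions gave 0.37. The fold was higher in TCKO at 37.0% of them. In nearer intergenic regions the difference was -0.20 (-0.21 to -0.20). Desert regions thus lay above nearer ones by 0.05 (0.04 to 0.06) on this measure, against 0.21 for the counts of the same regions. How far the level of the background around desert regions has a part in their count ratios was not tested.

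Distance was examined next. The ratio was larger in each farther bin. Its median was 0.18 (0.16 to 0.20) in the 9689 desert regions at 200 to 300 kb, 0.23 (0.21 to 0.26) in 9476 regions at 300 to 500 kb, 0.38 (0.35 to 0.41) in 6115 regions at 500 to 1000 kb and 0.58 (0.52 to 0.63) in 1626 regions beyond 1000 kb. The share that was 2-fold higher went from 17.2% to 33.1% over these bins, while the share that was 2-fold lower went from 4.87% to 3.08%. Counts at greater distance were lower in WT and nearly level in TCKO, with medians of 63, 57, 50 and 44 WT counts and 47, 44, 43 and 41 TCKO counts. In bins nearer to a start the median ratio varied from 0.06 to 0.13. Regions with a mean count of at least 50 gave the same order, with 0.20, 0.26, 0.40 and 0.58.

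**Figure D2:**
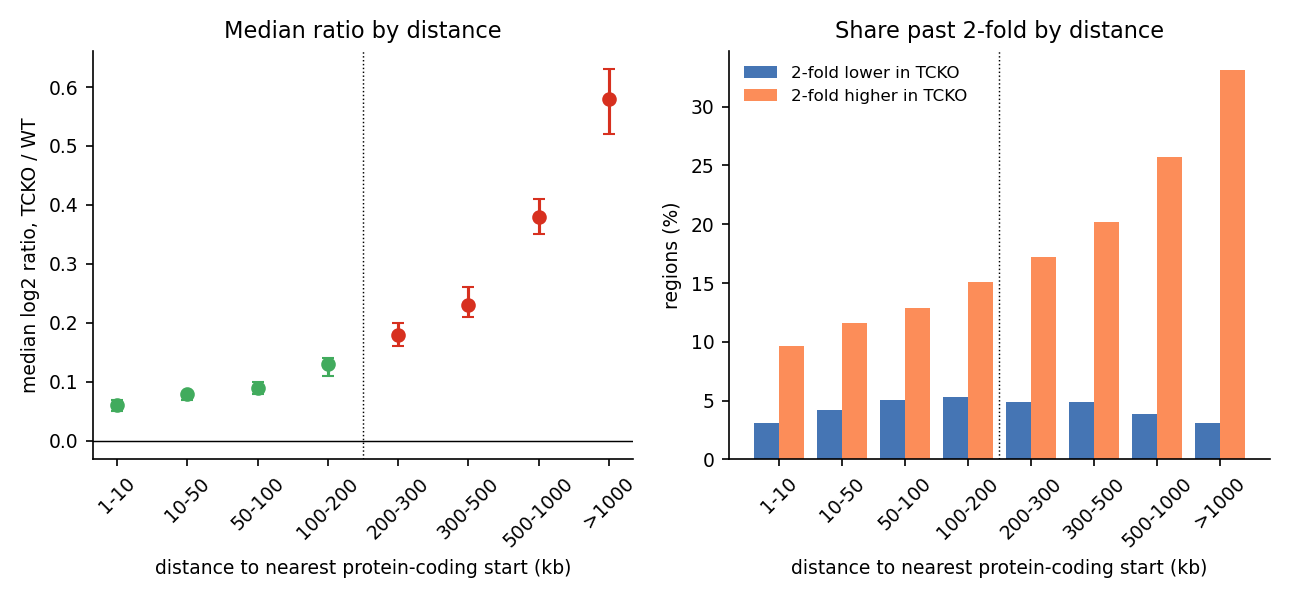
Median log2 ratio of TCKO to WT (left, bars are 95% intervals of the median) and share of regions at least 2-fold lower or higher in TCKO (right, %) by distance to the nearest protein-coding transcript start in kb. Desert bins lie to the right of the dotted line. The median is between 0.06 and 0.13 in the 4 nearer bins and between 0.18 and 0.58 in the 4 desert bins.

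The 200 kb limit marked no step. The 2368 desert regions between 200 and 220 kb had a median ratio of 0.18 with 17.0% 2-fold higher, and the 2730 intergenic regions between 180 and 200 kb had 0.11 with 15.1%. By summit fold the distance bins kept their order, from -0.19 (-0.21 to -0.18) at 200 to 300 kb through -0.14 and -0.12 to -0.06 (-0.09 to 0.03) beyond 1000 kb. With the background depth the medians went from -0.42 at 200 to 300 kb to -0.02 beyond 1000 kb. On all 19 autosomes, which share the same merged libraries, the median ratio of desert regions with the total count was positive, between 0.20 and 0.37.

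Sequence content was then read in the central 200 bp, beginning with CpG dinucleotides, the substrate of the TET enzymes. Desert regions had few of them, with a mean of 1.68 against 2.60 in nearer intergenic regions, and 27.3% of desert regions had none against 16.5%. The ratio was lower at each step from 0 to 5 or more CpGs. Its median was 0.48 (0.46 to 0.50) in the 7348 desert regions without a CpG, 0.35 with 1, 0.22 with 2, 0.05 with 3 to 4 and -0.17 (-0.21 to -0.13) in the 1741 regions with 5 or more. In the last group 174 regions (9.99%) were 2-fold lower and 129 (7.41%) were 2-fold higher, whereas without a CpG 198 (2.69%) were lower and 2064 (28.1%) higher. Regions with 5 or more CpGs were the only CpG group of the deserts in which lower calls outnumbered higher calls. The printed Mmadhc-Rnd3 and Mctp2-Rgma sequences, with 9 and 5 CpGs, belong to this group. Within it the order did not go on, with a median of -0.18 (-0.22 to -0.14) in 1620 regions with 5 to 9 CpGs and -0.10 (-0.18 to -0.01) in the 121 with 10 or more, of which 2.48% were lower.

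The same order was seen in nearer intergenic regions, where medians went from 0.29 without a CpG to -0.08 with 5 or more. The desert medians were thus the higher ones without a CpG and the lower ones with 5 or more. Removing the trend with GC content left a desert median of 0.32 without a CpG and -0.22 with 5 or more. With the background depth these medians were -0.12 and -0.77. By summit fold the values were -0.09 (-0.10 to -0.07) and -0.33 (-0.36 to -0.29), so the difference between both ends was 0.24 by summit fold and 0.65 (0.61 to 0.69) by counts.

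The AP-1 consensus TGANTCA was present in 8240 desert regions (30.6%), against 23.6% of all regions. Desert regions with it had a median ratio of 0.63 and those without it 0.11, a difference of 0.53 (0.51 to 0.55). It was found in 47.5% (46.3% to 48.8%) of the 2-fold higher desert regions, in 11.4% (9.71% to 13.3%) of the lower ones and in 27.0% of the rest. The median was 0.60 (0.57 to 0.62) with 1 match, 0.85 (0.80 to 0.90) with 2 and 0.87 (0.71 to 1.13) in the 74 regions with 3 or more, so the last step was within the intervals. Regions with 2 matches held more reads in TCKO than in WT even before scaling, with medians of 65 and 58. In nearer intergenic regions the consensus went with a difference of 0.40.

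Under the background depth the desert regions with 1 match had a median of -0.01 and those without a match -0.49, whereas regions with 2 matches had 0.24 and those with 3 or more 0.27. By summit fold the values were -0.04 (-0.05 to -0.02) with a match and -0.21 (-0.22 to -0.20) without, a difference of 0.17, and the fold was higher in TCKO at 47.6% and 31.2% of them. The difference with AP-1 was present at both ends of the CpG range. Among desert regions without a CpG the median was 0.77 with the AP-1 consensus and 0.29 without, and among those with 5 or more CpGs it was 0.13 and -0.22.

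**Figure D3:**
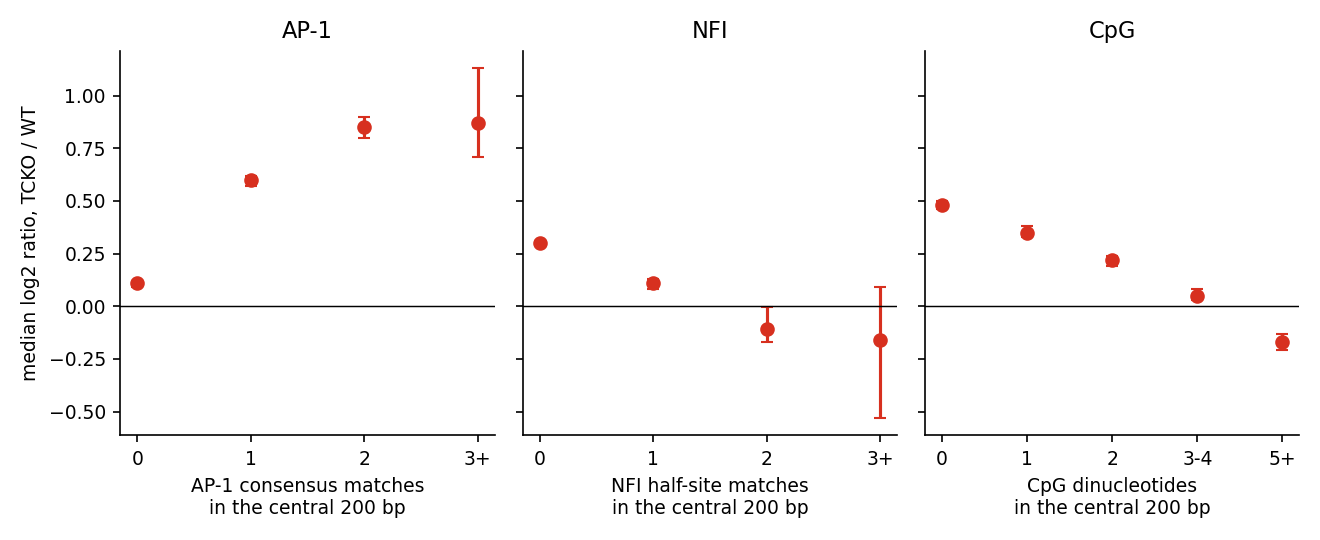
Median log2 ratio of TCKO to WT in desert regions (y axis, bars are 95% intervals of the median) by number of AP-1 consensus matches, of NFI element matches and of CpG dinucleotides in the central 200 bp. The median goes from 0.11 to 0.87 with AP-1 matches, from 0.30 to -0.16 with NFI matches and from 0.48 to -0.17 with CpGs.

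Distance and both features were read together next. The 282 desert regions beyond 1000 kb that had the AP-1 consensus and no CpG had a median ratio of 1.02, with 50.4% 2-fold higher and 0 lower, where a count of 0 allows up to 1.06%. At the other end, the 699 desert regions at 200 to 300 kb without the consensus and with 5 or more CpGs had a median of -0.19, with 6.44% higher and 9.44% lower. In that class the ratio did not follow distance, with -0.26 at 300 to 500 kb (13.2% lower, 3.76% higher), -0.22 at 500 to 1000 kb and 0.10 in the 29 regions beyond. Over all CpG numbers the distance order remained within desert regions without the consensus, with medians of 0.05, 0.08, 0.19 and 0.38, and within those with it, with 0.51, 0.62, 0.78 and 0.90.

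The element TTGGCA, a part of the site of the nuclear factor I family, went the other way. It was present in 4617 desert regions (17.2%), whose median ratio was 0.09 against 0.30 without it. It was found in 25.5% (23.1% to 28.0%) of the 2-fold lower desert regions, 11.5% (10.7% to 12.4%) of the higher ones and 18.2% of the rest. The median was 0.11 (0.08 to 0.13) with 1 match and -0.11 (-0.17 to -0.0025) with 2. Regions with the NFI element and no AP-1 consensus had a median of -0.05, those with AP-1 alone 0.67 and those with both 0.44. Of the 5 desert regions with the lowest ratio described next, a set picked by the ratio, the Mmadhc-Rnd3 and Etnk1-Sox5 regions held the element.

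The other 9 consensus sequences were searched on both strands as well. The Runt consensus TGTGGTT, bound by RUNX2, the master regulator of osteoblasts, was present in 9.75% of desert regions and 8.72% of all regions, with median ratios of 0.22 with it and 0.27 without. It was found in 9.32% (7.82% to 11.1%) of the lower and 8.66% (7.96% to 9.42%) of the higher desert regions, shares whose intervals overlap. The core CTCF consensus was present in 0.940% of desert regions, against 2.05% of all regions, and it went with a difference in the median of -0.18, the widest among these 9. Of the 253 desert regions with it 4 (1.58%) were lower and 11 (4.35%) higher, against 4.57% and 21.3% of those without. Differences in the median between regions with and without a match were 0.10 for SOX (ACAATG), 0.04 for TEAD (GGAATG), 0.03 for AGATAA, the element of GATA factors, 0.02 for the glucocorticoid receptor element AGAACA and -0.07 for homeobox factors (TAATTA). The differences were 0.07 for MEF2, searched as CTATTTATA, and -0.08 for C/EBP, searched as TTGCNNCAA. A consensus can overlap another, and a match does not show that the factor was bound.

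Single desert regions were named by rank among those in which the genotype with the larger count had 200 or more before scaling. The lowest ratio was found between *Mmadhc* and *Rnd3* (chr2:50877685-50878277), 271 kb from the nearest start, where WT held 584 counts and TCKO 74, a log2 ratio of -2.25 (-2.61 to -1.92). The summit fold there was 14.9 in WT and 4.47 in TCKO. The region between *Etnk1* and *Sox5* (chr6:143571016-143571919) held 705 and 98 counts, a ratio of -2.12 (-2.43 to -1.83), and lay 376 kb from the nearest start. *Sox5* encodes a SOX factor of cartilage formation. The region between *Mctp2* and *Rgma* (chr7:73036800-73037580) held 567 and 84 counts, a ratio of -2.03 (-2.37 to -1.71). *Rgma* encodes a co-receptor of BMP ligands. Each of these 3 kept a peak in both genotypes, with summit folds that were also lower in TCKO.

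The other 2 falls had a peak in WT alone. The region between *Ebf1* and *Clint1* (chr11:45199507-45199931), which overlaps the long noncoding RNA gene *Gm12160*, held 240 WT and 36 TCKO counts, a ratio of -2.0 (-2.52 to -1.52). *Ebf1* encodes a transcription factor of B cells and of mesenchymal cells. The region between *Wac* and *Fzd8* held 228 and 34 counts, a ratio of -2.01 (-2.55 to -1.51). Under each scaling tried, all 5 falls remained past 2-fold.

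The highest ratio was found between *Lingo2* and *1700009N14Rik* (chr4:38748211-38748578), in the long noncoding RNA gene *Gm12381*, with 54 WT and 222 TCKO counts, a ratio of 2.73 (2.33 to 3.18). It was 702 kb from the nearest start. Its summit fold was 3.36 in WT and 12.4 in TCKO. Between *Trim52* and *Slitrk1* (chr14:108258417-108258966) a region 655 kb from the nearest start held 71 and 201 counts, a ratio of 2.20 (1.83 to 2.61), and the summit folds were 3.70 and 8.31. *Slitrk1* encodes a synaptic adhesion protein. Between *Tox* and *Car8* (chr4:7199153-7199544), 66 and 206 counts gave a ratio of 2.34 (1.96 to 2.76). Between *Setbp1* and *Pard6g*, 60 and 233 counts gave 2.65 (2.27 to 3.08), and between *Cdh2* and *Dsc3*, 109 and 304 counts gave 2.19 (1.88 to 2.51). Of these 5 rises, 3 held the AP-1 consensus in the central 200 bp and 4 had no CpG there. None of the 5 falls held the consensus, which was present in 11.4% of all 2-fold lower desert regions. Falls and rises were picked by the ratio, so these features describe them and add no support to the differences above. The falls differed in CpG number, with 9 at Mmadhc-Rnd3, 5 at Mctp2-Rgma, 3 at Etnk1-Sox5, 2 at Ebf1-Clint1 and 0 at Wac-Fzd8. All 5 rises had a peak in both genotypes, and each stayed past 2-fold under every scaling tried. The printed Ankrd7-Kcnd2 region (chr6:19364631-19364894), chosen after its values were seen for its 2 AP-1 matches, held 76 and 210 counts, a ratio of 2.17 (1.81 to 2.56).

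The desert regions with most WT counts per kb differed by less than 2-fold with the total count. By WT counts per kb the first was between *Eipr1* and *Myt1l* (chr12:29290744-29291419), with 2651 WT and 1216 TCKO counts and a ratio of -0.41 (-0.51 to -0.31). The region between *Gdf6* and *2610301B20Rik* (chr4:10265691-10266571), beside a BMP-family ligand gene of joint formation, held 2897 and 1421 counts, a ratio of -0.31 (-0.40 to -0.22). These 2 did not stay within 2-fold under every scaling, since the first had -1.02 with the background depth and -1.12 without scaling, and the second -0.92 and -1.03. The region between *Rps24* and *Zmiz1* (chr14:25231820-25232241) held 1462 and 878 counts, a ratio of -0.02 (-0.14 to 0.10). Its central 200 bp repeat a short unit in tandem, and how reads were placed there was not tested. The other 2, between *Myom2* and *Csmd1* and between *Mc2r* and *Tcf4*, had ratios of 0.75 and 0.87. They shared 203 of their 20-base words, or 85.3% of those of the shorter region, so reads of one resemble the other and both values are uncertain. The Myom2-Csmd1 region supplied 1201 of the 4528 WT counts beside *Csmd1*, a gene of the neuronal list read below.

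Desert regions were then grouped by the gap between neighbouring protein-coding genes in which they lay, here called a desert and named by its flanking genes. There were 847 deserts, of which 627 held at least 10 regions and 96.1% of all desert regions. Counts were summed over the regions of each. The ratio of sums had a median of 0.27 over the 627 deserts and ranged from -0.46 to 1.36, and its interval lay above 0 in 457 and below 0 in 84. This interval covers counting error of the sums, not the spread between regions of a desert or the choice of scaling. The same holds for the intervals of summed counts given below. Higher calls outnumbered lower calls in 540 deserts and the reverse held in 55. With the background depth the ratio of sums was above 0 in 98 of the 627 and its median was -0.34.

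Long and sparsely occupied deserts had the higher ratios. The median ratio was 0.07 in 101 deserts of up to 0.5 Mb, 0.20 in 290 of 0.5 to 1 Mb, 0.38 in 166 of 1 to 2 Mb and 0.51 in 70 longer than 2 Mb, all 70 of which were above 0. By the number of regions per Mb, the median was 0.55 in the 157 sparsest deserts (5.93 to 25.2 per Mb) and 0.07 in the 157 densest (56.5 to 201 per Mb). The sparsest deserts also had the consensus of AP-1 in more of their regions (37.8% against 26.7%) and fewer CpGs (a mean of 1.31 against 1.99). Accessible regions were less dense in deserts as a whole, with 51.1 per Mb over 527 Mb of desert sequence against 102 per Mb over 879 Mb of nearer intergenic sequence.

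**Figure D4:**
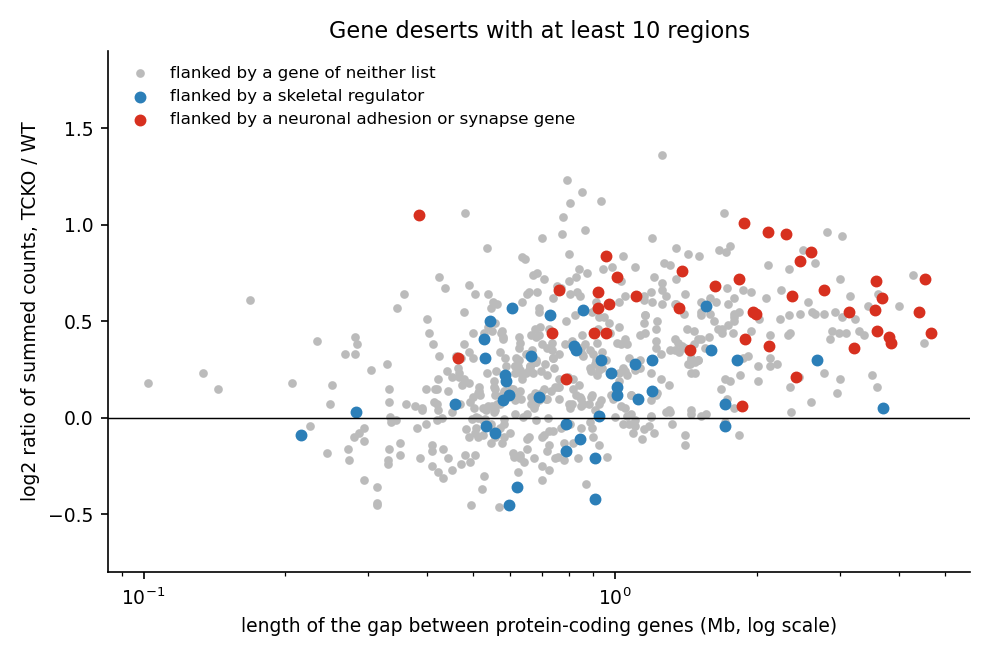
Log2 ratio of summed TCKO to WT counts (y axis) against the length of the gap between protein-coding genes (x axis, Mb, log scale) for the 627 deserts with at least 10 regions, each a point. Blue points are 42 deserts flanked by a skeletal regulator, of which 31 lie above 0 with the total count, and red points are 42 flanked by a neuronal adhesion or synapse gene, all above 0 with the total count.

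A pair of gene lists was used to read deserts by their neighbours. Of 45 neuronal adhesion and synapse genes, 37 bordered a desert region, and the 2219 desert regions beside them had a median ratio of 0.57 (0.52 to 0.61), with 64 (2.88%) 2-fold lower and 705 (31.8%) 2-fold higher. All 42 deserts of this list with at least 10 regions had a ratio of sums above 0, with a median of 0.57 and a range from 0.06 to 1.05. With the background depth 19 of the 42 were above 0, with a median of -0.04. The 14 regions beside *Ctnna2*, an alpha-catenin of neurons, held 1259 WT and 1581 TCKO counts before scaling, a ratio of 1.05 (0.94 to 1.15). The 41 regions beside *Lrrc4c*, a netrin-G ligand, held 2798 and 3385, a ratio of 0.99 (0.92 to 1.06). The 143 regions beside *Pcdh9*, a protocadherin, held 9418 and 9149, a ratio of 0.68 (0.63 to 0.72), with 4 lower and 52 higher. The lowest ratio of the list was beside *Nlgn1*, a postsynaptic adhesion protein, with 0.12 (-0.03 to 0.27).

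Of 69 skeletal, limb and craniofacial regulators, 39 bordered a desert region. The 2350 regions beside them had a median ratio of 0.14 (0.11 to 0.17), below that of all desert regions, with 127 (5.40%) 2-fold lower and 392 (16.7%) 2-fold higher. Of 42 deserts with at least 10 regions, 31 had a ratio of sums above 0, whereas with the background depth none of the 42 was, and their median was -0.48. With the total count the 39 genes spread on both sides, with intervals above 0 for 25, below 0 for 6 and including 0 for 8. *Sox5* and *Sox6*, partner factors of cartilage formation, had ratios of -0.43 (-0.48 to -0.38) over 56 regions and -0.36 (-0.41 to -0.32) over 55. The limb patterning genes *Meis1* (-0.27, 85 regions) and *Tbx3* (-0.21, 91 regions) were also below 0, as was *Ebf1* (-0.11, 86 regions). *Runx2* had 22 regions with a ratio of -0.09 (-0.18 to -0.0036). Above 0 were *Sox11* (0.40, 114 regions), a SOX factor of neurons and mesenchyme, *Zfhx4* (0.58, 29 regions) and *Nr2f1* and *Nr2f2* (0.30 each, over 115 and 133 regions).

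The contrast between both lists was also present at matched distance. At 200 to 300 kb the median ratio was 0.13 (0.09 to 0.18) beside skeletal genes and 0.45 (0.35 to 0.56) beside neuronal genes, and at 500 to 1000 kb it was 0.17 (0.12 to 0.27) and 0.61 (0.52 to 0.68). Beside neuronal genes 36.9% of regions had the AP-1 consensus and the mean CpG number was 1.27, against 28.9% and 1.89 beside skeletal genes. By summit fold the median difference was -0.04 (-0.07 to 0.0032) beside neuronal genes and -0.20 (-0.23 to -0.16) beside skeletal genes. The remaining 22337 regions, beside genes of neither list, had a median count ratio of 0.25.

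The desert between *Kcnj2* and *Sox9* spans 1.71 Mb upstream of *Sox9*, the master regulator of cartilage, whose distant enhancers act in the growing skeleton and face. It held 133 desert regions with summed counts of 16926 in WT and 10040 in TCKO, a ratio of -0.04 (-0.07 to -0.0006). The regions did not move as a block, and their median was -0.11 (-0.28 to 0.09). Of them 12 (9.02%) were 2-fold lower and 17 (12.8%) higher. The shares were 4.55% and 21.2% over desert regions and 4.51% and 12.3% over all regions. With the background depth the ratio of sums was -0.64. By summit fold the median difference was -0.22 (-0.31 to -0.09) over 66 regions with both peaks. The part nearer to *Sox9*, from 212 to 758 kb, had 6 lower and 9 higher regions, and the farther part, from 779 to 1501 kb, had 6 and 8. The ratio of sums was 0.11 over 37 regions with the AP-1 consensus and -0.13 over the 96 without.

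The most accessible regions of this desert differed by less than 2-fold with the total count. The region with most counts per kb, 1094 kb upstream of *Sox9*, held 946 WT and 729 TCKO counts, a ratio of 0.34 (0.20 to 0.48). A pair near 310 kb upstream differed from each other, with 572 and 481 counts and a ratio of 0.47 (0.29 to 0.64) in one and 1049 and 516 counts and a ratio of -0.31 (-0.46 to -0.15) in the other. Among regions of this desert whose larger count was 100 or more, a limit chosen after values were seen, the lowest ratio lay 302 kb from the *Sox9* start (chr11:112480261-112480749), with 268 and 43 counts and a ratio of -1.91 (-2.39 to -1.46). It holds 6 CpGs, marked in the printed sequence, and no AP-1 consensus. The highest lay 479 kb away (chr11:112303159-112303500), with 135 and 186 counts, a ratio of 1.17 (0.86 to 1.5), 1 AP-1 match and no CpG.

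**Figure D5:**
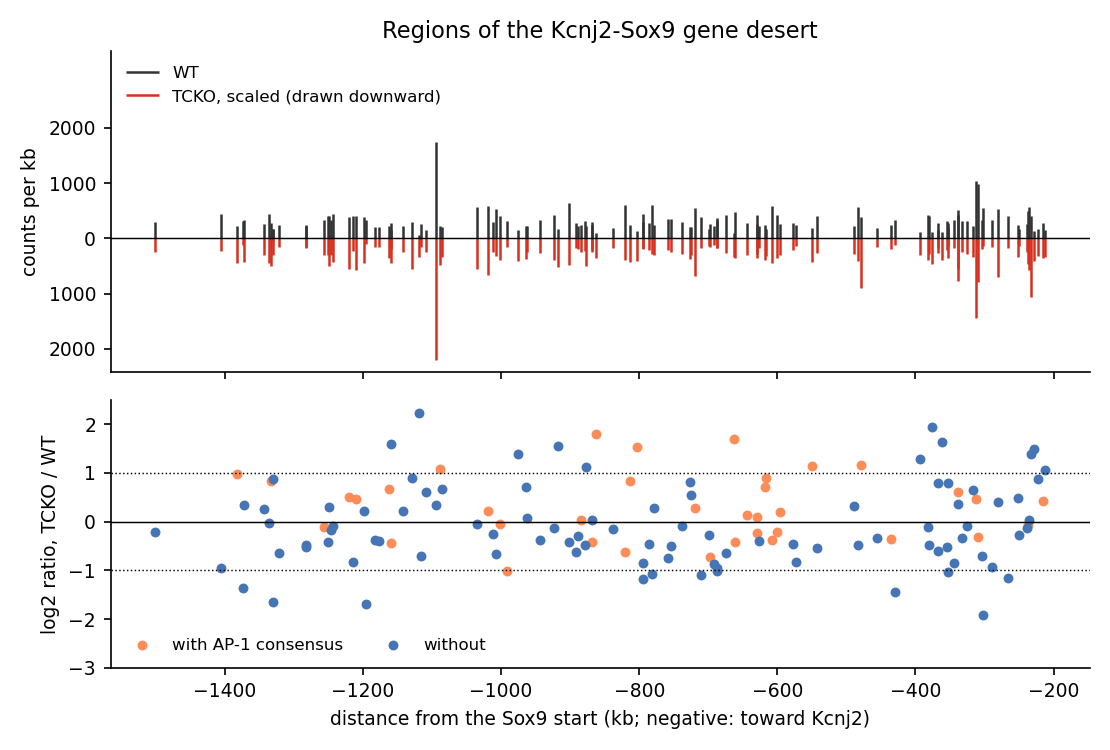
Desert regions between Kcnj2 and Sox9 by distance from the Sox9 start in kb (x axis, negative toward Kcnj2). Top, WT counts per kb (upward) and scaled TCKO counts per kb (downward). Bottom, log2 ratio of each of the 133 regions with 2-fold marked by dotted lines, in orange with and in blue without the AP-1 consensus. Regions on both sides of 0 alternate along the whole desert.

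The deserts on either side of *Bmp2*, which encodes a bone-inducing ligand, both had higher TCKO counts after scaling. Between *Fermt1* and *Bmp2* the sums over 18 regions were 1407 and 1269 counts, a ratio of 0.57 (0.46 to 0.68). Of these regions 1 (5.56%) was lower and 5 (27.8%) higher. Between *Bmp2* and *Hao1* the sums over 40 regions were 2683 and 2009, a ratio of 0.30 (0.22 to 0.38) with 4 lower and 7 higher. With the background depth both ratios were below 0.

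With the total count, the deserts with most regions had ratios near or above 0, whereas with the background depth all 10 were below 0, from -0.64 to -0.21. Between *Zeb2*, a repressor of epithelial genes, and *Acvr2a*, an activin receptor gene, 188 regions held 26932 and 16916 counts, a ratio of 0.05 (0.02 to 0.07). Between *Myc* and *Gsdmc*, a desert of 1.79 Mb known for *Myc* enhancers, 167 regions held 33518 and 21137 counts, a ratio of 0.05 (0.03 to 0.08). Of these regions 11 (6.59%) were lower and 18 (10.8%) higher. Shares over desert regions were 4.55% and 21.2%, and over all regions 4.51% and 12.3%. Between *Cdh11*, the cadherin of osteoblasts, and *Cdh5*, that of endothelial cells, 139 regions had a ratio of -0.03 (-0.06 to -0.0004). The other 7 of the 10 largest ranged from 0.13 between *Nmbr* and *Cited2* to 0.39 between *Sel1l* and *Flrt2* and between *Celf4* and *Pik3c3*.

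Among deserts with at least 10 regions, those with the lowest ratios were close to each other. The values were -0.46 (-0.52 to -0.40) between *Pfn2* and *Tsc22d2*, -0.45 (-0.51 to -0.40) between *Etnk1* and *Sox5*, -0.45 between *Tle3* and *Rplp1* and -0.44 (-0.58 to -0.30) between *Ano6* and *Arid2*, and their intervals overlap. The Etnk1-Sox5 desert held the second region of the falls above. In this desert 11 of 53 regions (20.8%) were 2-fold lower and 3 (5.66%) higher, beside 4.55% and 21.2% over desert regions. It summed to 9427 WT and 4188 TCKO counts.

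The 5 highest ratios came from few counts. Between *Slco6d1* and *Cntnap5b* 12 regions held 552 WT and 864 TCKO counts, a ratio of 1.36 (1.21 to 1.52). Of them 7 (58.3%) were higher and 1 (8.33%) lower, beside 21.2% and 4.55% over desert regions. Between *G6pd2* and *Arap2* 10 regions held 365 and 522 counts, a ratio of 1.23 (1.04 to 1.43), with 8 (80.0%) higher. Next were the deserts between *Adgrb3*, an adhesion receptor gene of synapses, and *4931408C20Rik* (1.17, 1.01 to 1.33), between *Lrrc7* and *Depdc1a* (1.12, 0.99 to 1.25) and between *4933412E24Rik* and *Fam84b* (1.11, 1.02 to 1.21). Unscaled TCKO counts exceeded WT counts in each of these 5, although fewer TCKO reads were counted over all regions. The background depth put both libraries closer together, with a TCKO factor of 1.08.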

How the data were processed

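ATAC-seq was done on primary mouse osteoblasts, WT and TCKO. Per the study's methods, reads were aligned end to end to GRCm38 with STAR 2.7.0e, uniquely mapping reads were kept, replicates were merged and peaks were called with MACS2. Removal of duplicate or mitochondrial reads and a shift for the transposase are not given in the sources used here. The authors deposited raw read counts per region in 1 merged column per genotype. Their deposited peak lists gave a fold enrichment, which is a ratio of the summit to its surroundings, and −log10 of the p-value and q-value at each summit.

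TCKO counts were scaled to the WT total, and the log2 ratio was taken after adding 1 count, with a cutoff of 2-fold. Shares and single ratios have 95% Wilson intervals and medians 95% order-statistic intervals. The Wilson intervals cover counting error only and the intervals of medians the spread over regions. PCR copies were not marked by molecular identifiers, and neighbouring regions were treated as independent, so both kinds can be too narrow. Depth limits single regions most, since the median desert region held 56 WT and 45 TCKO counts. Protein-coding transcript starts and genes came from GENCODE M21, and sequence from the RefSeq GRCm38 assembly, which was long enough for all coordinates, given from 1. Matches to consensus sequences were taken from either strand of the central 200 bp.

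Alternatives were TMM (edgeR 4.0.16), size factors (DESeq2 1.42.0), no scaling, the depth from the peak caller background (1.98 reads over 98 bp in WT, 1.91 over 102 bp in TCKO), a loess trend with span 0.3 (statsmodels 0.14.6), centring within 20 GC bins, other distance limits, folds and count filters. edgeR and DESeq2 served for factors only, since 1 column per genotype allows no test.

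Members, gene lists, consensus sequences and rules were chosen with earlier results of these data known. Named regions were the 5 lowest and 5 highest ratios among desert regions whose larger count was 200 or more, and the 5 with most WT counts per kb. Named deserts were the 10 with most regions, the 5 lowest and 5 highest of those with at least 10 regions, and those beside *Sox9* (toward *Kcnj2*) and *Bmp2*. One of the lowest deserts is not reported here. The steps were tested on simulated data. Scripts ran in Python 3.11.15 (numpy 2.4.6, scipy 1.17.1, pandas 2.3.3) and R 4.3.3.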

Additional observations from a re-analysis of the deposited data

How the results depend on the processing

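No paired analysis was possible because each genotype has 1 merged column, and for the same reason no replicate could be left out. Without scaling and under the background depth of the peak caller, lower desert regions numbered 6249 and 4991 and higher ones 1693 and 2073, and the desert median was -0.44 and -0.33. A factor shifts all regions alike by construction. Lower and higher counts were 3414 and 9473 at a fold of 1.5, 248 and 2124 at 3, and 148 and 1937 for intervals wholly past 2. Lower regions numbered 700 with 10 counts added and 2210 beyond 100 kb, and beyond 500 kb, with fewer regions, the counts were 287 and 2108.

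The desert median was 0.19 by TMM, 0.20 by size factors of DESeq2, 0.18 once the loess trend was taken out, 0.14 after GC removal, 0.23 with 10 counts added, 0.20 beyond 100 kb, 0.42 beyond 500 kb and 0.28 outside every annotated gene. Its excess over nearer intergenic regions was 0.14 after GC removal, 0.13 beyond 100 kb, 0.32 beyond 500 kb, 0.19 outside every gene and 0.16 with 10 counts added. The AP-1 difference was 0.47 after loess, 0.58 beyond 500 kb, 0.50 with at least 50 counts, 0.47 with 10 counts added and 0.44 over the whole region. The CpG difference was 0.54 after GC removal, 0.57 beyond 100 kb, 0.71 beyond 500 kb and 0.58 with 10 counts added. The share with both peaks was 27.3% at a −log10 q of at least 5, 14.7% at 10, 45.1% with equal numbers of peaks, 41.1% with 50% of the region covered and 50.5% beyond 500 kb. Chosen after the data were seen, summit fold gave a desert median of -0.15, an excess of 0.05, an AP-1 difference of 0.17 and a CpG difference of 0.24, and the counts of the same regions 0.37, 0.21, 0.34 and 0.57. The cause was not tested. All 10 named falls and rises stayed past 2-fold under each of 6 other scalings. Of 23 deserts read in the same way, the ratio of sums lay outside its interval in 15 by TMM and 14 by DESeq2 size factors. Without scaling and with the background depth it lay outside in all 23.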

Other observations

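Repeats and noncoding genes were read over the desert regions as well. In the 915 desert regions of which more than 75% was masked as repeat, the median ratio was 0.65 (0.54 to 0.74) and 37.9% were 2-fold higher, from medians of 33 WT and 31 TCKO counts. In the 10215 without a masked base it was 0.27 (0.25 to 0.29) with 22.7% higher. The 3879 desert regions inside a long noncoding RNA gene had a median of 0.17 (0.14 to 0.21), and the 415 within 1 kb of the start of such a gene had 0.07 (-0.0004 to 0.14), with 11.8% higher and a mean of 3.58 CpGs.

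The 395 regions of chromosome X that meet the same distance rule had a median of 0.24 (0.12 to 0.36). Of them 25 (6.33%) were lower and 80 (20.3%) higher, beside 4.51% and 12.3% over all regions. Neighbouring desert regions up to 2 kb apart had ratios with a Pearson r of 0.32 over 4935 pairs, against 0.06 over 2188 pairs more than 50 kb apart, where all pairs share both libraries.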
